A study of Arabidopsis thaliana with 2 samples.

Results

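ABC transporter genes encode membrane pumps that use ATP to move hormones, lipids, metals and metabolites, together with soluble relatives that act in translation. They were taken from TAIR10 as protein-coding genes with a symbol beginning ABCA to ABCG or ABCI, or a description naming an ABC transporter or ABC-2 type transporter. This rule found 129 of 27444 genes, of which 124 came by symbol and 5 by description. In Col-0, 128 of these had 10 or more CpHpG cytosines with reads (H is A, C or T) and a mean depth of 4 or more at them, beside 26445 of all protein-coding genes. ABCI5 had no reads, and all of its 75-base windows occurred elsewhere in the nuclear or mitochondrial genome. The description rule also took in ABC1, which belongs to a kinase-like family and is not a transporter, and the symbol rule misses ABC genes filed under other names, such as PEN3 (ABCG36).

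The data are 2 whole-genome bisulfite libraries of rosette leaves from 3-week-old Arabidopsis thaliana, 1 from Col-0 ibm1-1 and 1 from Ler-0 ibm1-1 homozygous plants of the first generation. Both lack functional IBM1, and the allele was brought from Col-0 into Ler-0 by backcrossing 4 times. There is 1 library per ecotype and no wild type was used here, so no value has a replicate error and every comparison is between libraries. The Col-0 library gave 371653818 calls (8.63 per cytosine) and the Ler-0 library 313387873 (6.58 per cytosine). Methylated calls at chloroplast cytosines, which stand for unconverted bases, made up 1.34% and 1.39%, so levels near 2% lie little above this background.

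The backcrossed line lacked Ler-0 sequence over part of chromosome 3. Between positions 250001 and 9000000 (TAIR10), 9.63% of cytosines that only Ler-0 has were covered, against 80.8% elsewhere. The stretch holds 11 of the members compared, among them ABCE1 and ABCC7.

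In plants, CpG methylation inside transcribed genes is kept by MET1, whereas CpHpG methylation is kept by CMT3 together with histone H3 lysine 9 dimethylation, a mark typical of transposons. IBM1 is a histone demethylase that removes this mark from genes, and its mutants gain CpHpG methylation in the bodies of many genes. At a CpCpG site the internal cytosine is in the CpG context and the external cytosine is in the CpHpG context, so a site can be methylated at the internal cytosine, at both, at the external alone or at neither.

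Most ABC transporter genes carried little CpHpG methylation in Col-0 ibm1-1. The level of a gene is the share of methylated calls among all calls at its CpHpG cytosines, on both strands between the gene ends. The median was 2.61% over the 128 members, beside 2.63% over all genes, and 95 members lay under 5% (72.7% of all genes did). A level of at least 20% was found in 10 members (7.81%, 95% Wilson interval 4.30–13.8%), and 10.8% of all genes reached it. The pooled level was 8.26% (8.17–8.35%), below the 12.3% of all genes. Pooled CpG methylation was 23.2% beside 24.96% and pooled CpHpH methylation 1.53% beside 2.09%. Intervals here cover counting error only, and reads are not independent molecules.

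The 10 members at 20% or more came from 7 subfamilies. ABCE1 (AT3G13640, chromosome 3, 4458389–4461844), an RNase L inhibitor-type protein of ribosome recycling, had the highest level at 39.2% (1538 of 3919 calls, 37.7–40.8%). ABCC13 (AT2G07680, chromosome 2, 3514668–3522658), a multidrug resistance-associated protein, followed at 38.8% (2242 of 5779 calls). The difference between them, 0.45 points, has an interval from −1.53 to 2.43, so their order is not resolved. ABCG3 had 35.5% and ABCF4, a soluble member of the translation-linked ABCF group, 32.3%. ABCI4 had 25.4%, but 97.6% of its 75-base windows were repeated and 96.1% occurred in the mitochondrial genome, so its reads cannot be told apart from mitochondrial ones. ABCE2 had 22.5% and ABCI7, the SUFD subunit of plastid iron-sulfur cluster assembly, 22.0%. The intervals of the differences between ABCI7 and ABCB26 (21.2%) and between ABCB26 and ABCG32 (20.1%) include 0. By the mean of single cytosines 6 members reached 20%, a share that was not computed over all genes. By this measure ABCE2 (18.01%), ABCI7 (18.7%), ABCB26 (18.8%) and ABCG32 (18.8%) did not. ABCD2 (19.3%) and ABCC5 (17.9%) lay just under the limit.

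The subfamilies differed in pooled level in Col-0, over whole genes. A subfamily of 2 genes is left out here. The 3 ABCE genes stood at 30.2% and the 5 ABCF genes at 15.5%, whereas the 42 ABCG genes stood at 5.36%, the 27 ABCB genes at 5.65% and the 12 ABCA genes at 6.602%. The 15 ABCC genes were at 10.4% and the 17 ABCI genes at 9.87%. The ABCI value includes ABCI4 (991 of 3903 calls), whose reads cannot be told apart from mitochondrial ones. Over placed tiles (described below) the 15 ABCI genes compared, which leave out ABCI4, had 7.65% in Col-0. Within ABCE the range was wide, as ABCE3, of 546 bp, had 1.20%. These pooled values rest on few genes: ABCA1 alone had 16.4% while the other ABCA genes lay between 1.76% and 3.90%. In Ler-0, over placed tiles, the order was not the same. There ABCE (2 genes compared) stood at 21.1%, ABCF at 21.2% and ABCC at 18.2%. ABCA stood at 12.9%, ABCB at 12.6%, ABCI at 9.84% and ABCG at 9.75%.

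**Figure D1:**
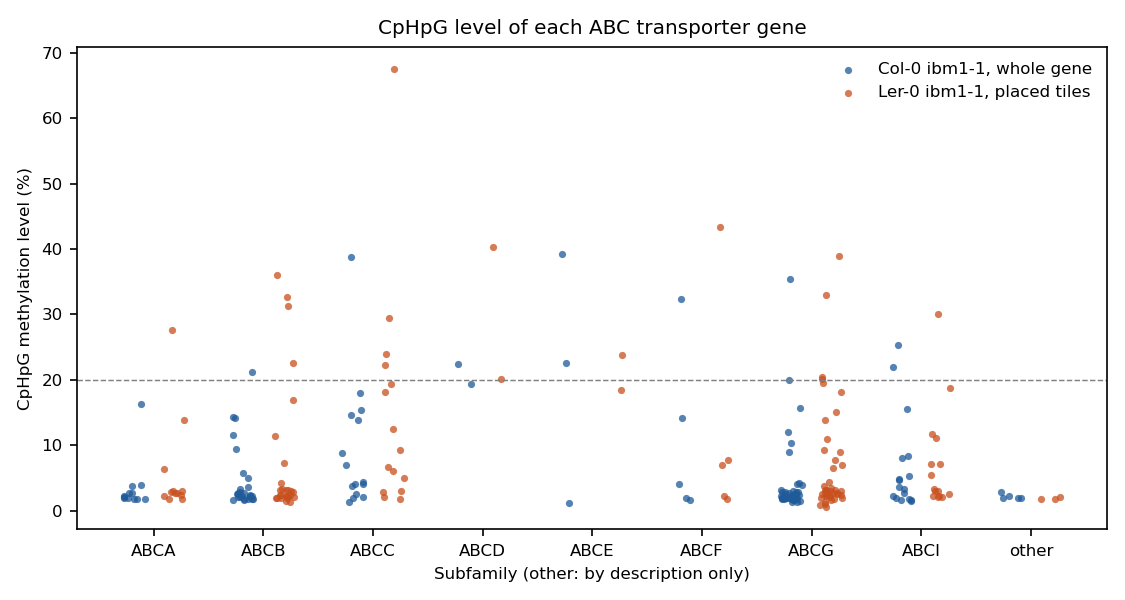
CpHpG methylation level (%) of each ABC transporter gene by subfamily, with Col-0 ibm1-1 over the whole gene in blue and Ler-0 ibm1-1 over placed tiles in orange; the dashed line marks 20%. In Col-0 10 genes lie at or above the line, and in Ler-0 18, with ABCC15 at 67.5%.

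Grouped by role, the members gave small lists. Their values are for Col-0 over whole genes, and their counts stand beside the 72.7% of all genes under 5% and the 10.8% at 20% or more. Of 6 auxin genes measured, 5 lay under 5% and none reached 20%; ABCB1, an auxin exporter, had the highest value at 14.3% and ABCB4 the lowest at 1.65%. All 5 abscisic acid genes lay under 5%, from ABCG25, the exporter, at 1.60% to ABCG30 at 4.23%. Of 11 genes for cuticle, suberin and pollen wall lipids, 8 lay under 5% and only ABCG32, which acts in cutin formation, reached 20%; ABCG1 was lowest at 1.36%. The 4 vacuolar genes ran from ABCC3 at 4.15% to ABCC5, the phytate transporter, at 17.9%. Of 8 genes of mitochondria, plastid, peroxisome or vacuole, 2 reached 20%, and ABCB24 was lowest at 1.67%. The list of 7 soluble ABCE and ABCF genes leaves out ABCE3 (1.20%). Of these 7 genes 3 reached 20%, with ABCE1 the highest and ABCF1 the lowest of the list at 1.64%. Of 8 bacterial-type ABCI genes, ABCI7 alone reached 20%, and ABCI14 was lowest at 1.71%. In Ler-0, over placed tiles, 4 of the 8 genes of mitochondria, plastid, peroxisome or vacuole reached 20%. So did 2 of the 11 lipid genes, 2 of the 7 soluble genes, 1 vacuolar and 1 bacterial-type gene, but no auxin or abscisic acid gene. Of all genes 15.1% did. Over the same tiles the abscisic acid genes still had a higher pooled level in Ler-0, 7.82% beside 3.10% in Col-0, while their median was 2.78% beside 2.94%. These lists hold 4 to 11 genes, and differences among them and from all genes were not tested.

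Genes in clusters lay under 20% in Col-0 but not all in Ler-0. Arrays here are groups of members with neighbours within 20 kb, not always of 1 subfamily, as in ABCG33, ABCI16 and ABCG2. In 15 such arrays, which hold 47 members, no gene reached 20% in Col-0, beside 10.8% of all genes. In Ler-0, over placed tiles, ABCC12 (23.9%), ABCC7 (22.3%, in the chromosome 3 stretch) and ABCG2 (20.5%) did, beside 15.1% of all genes. In the array of ABCA2 to ABCA8 on chromosome 3 (17594060–17633942) the 7 genes ranged from 1.84% to 3.90%, although CpG methylation ran from 3.52% to 36.7%. The highest member of an array was ABCC11 at 15.4%, beside ABCC1 and ABCC12.

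In Col-0, over whole genes, members with at least 5% CpHpG methylation all had at least 10% CpG methylation, as nearly all such genes did. Of all genes with at least 5% CpHpG, 307 had less than 10% CpG. CpG methylation of at least 10% was found in 77 members (60.2%), beside 45.3% of all genes. All 10 members at 20% CpHpG were among them, 23 lay between 5% and 20% and 44 lay under 5%. Of the 11988 genes in general with such CpG methylation, 2858 reached 20%, 4044 lay between and 5086 lay under 5%. Of the members with CpG methylation, 13.0% reached 20% CpHpG, beside 23.8% of all such genes. Over placed tiles not every member with at least 5% CpHpG had at least 10% CpG. ABCI13 had 5.91% CpHpG with 0.96% CpG in Col-0 and 5.42% with 9.34% in Ler-0, and ABCC9 6.12% with 6.21% in Ler-0. ABCB19, an auxin exporter, had 47.7% CpG (1385 of 2902 calls) and 3.35% CpHpG (128 of 3820 calls), and ABCB27 had 71.2% CpG and 11.6% CpHpG. Across the 128 genes of 1 library, Spearman's rho between the 2 levels was 0.76. This is a description only, over genes that vary in depth and in number of CpHpG cytosines.

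**Figure D2:**
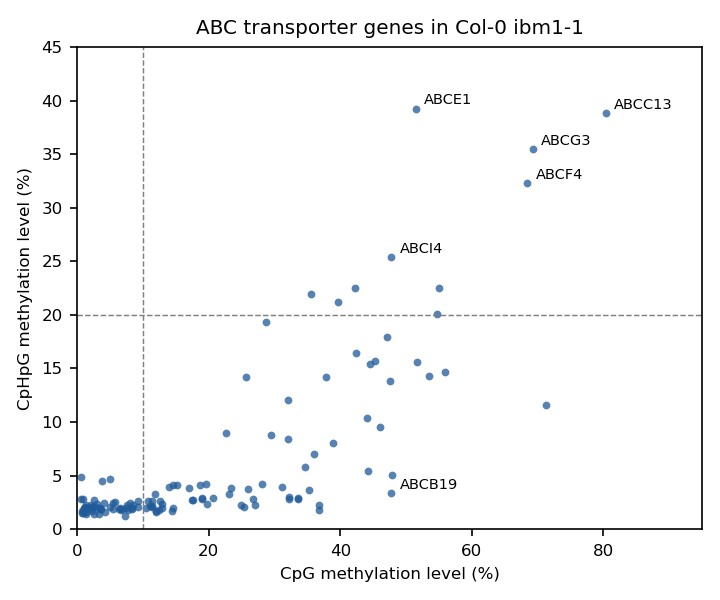
CpHpG against CpG methylation level (%) of each ABC transporter gene in Col-0 ibm1-1; dashed lines mark 10% CpG and 20% CpHpG. All genes above 20% CpHpG lie to the right of 10% CpG, and ABCB19 at 47.7% CpG lies at 3.35% CpHpG.

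Long members were less often methylated than long genes in general. Members are long, with a median of 4523 bp beside 2117 bp. Among those longer than 6000 bp, 3 of 27 (11.1%) reached 20% CpHpG, beside 53.7% of all genes of that length, and from 4000 to 6000 bp it was 8.0% beside 25.1%. From 2000 to 4000 bp the shares were 7.5% and 7.93%. Among members longer than 6000 bp median CpG methylation was 29.5%, beside 49.2%. Whether this lower CpG level accounts for the difference was not tested.

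**Figure D3:**
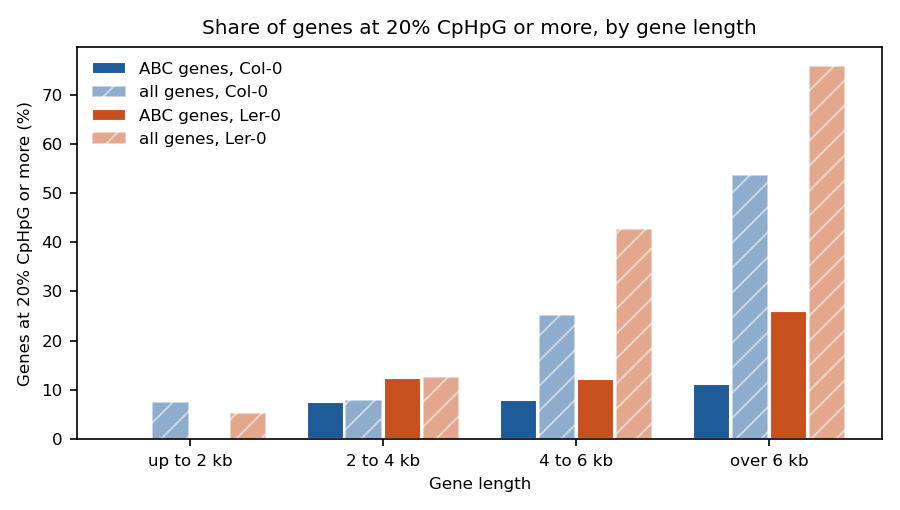
Share of genes (%) at 20% CpHpG or more, by gene length, for ABC transporter genes (plain bars) and all protein-coding genes (hatched) in Col-0 (blue) and Ler-0 (orange). Over 6 kb, 11.1% of ABC genes and 53.7% of all genes lie at 20% or more in Col-0, and 25.9% and 75.9% in Ler-0.

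Along the gene, CpHpG methylation sat in the interior. Over 123 members of at least 1500 bp, it was 2.33% in the first 500 bp, 9.13% in the interior and 5.19% in the last 500 bp, beside 3.57%, 15.2% and 5.77% over all genes. CpG methylation followed the same order, at 3.597%, 27.6% and 14.3%. Coding exons had 8.12% and introns 9.64%. By trinucleotide the pooled levels were 9.02% at CpApG, 8.50% at CpTpG and 5.63% at CpCpG, lowest at CpCpG as over all genes (8.05%). CpHpH methylation of at least 5% was found in 3 members, ABCE1 (7.84%), ABCC13 (6.69%) and ABCI4 (6.14%), beside 4.57% of all genes. The ABCI4 value cannot be told apart from mitochondrial reads.

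External cytosines of CpCpG sites in ABC genes were methylated less often than in all genes together, although internal ones were methylated as often. Of 4183 sites with at least 5 reads at both cytosines, the internal cytosine was methylated (at least 50%) at 23.2%, beside 22.6%. Where it was, the external cytosine was methylated (at least 25%) at 234 of 970 sites, 24.1% (21.5–26.9%), beside 35.9% of sites of all genes. Intervals over CpCpG sites, here and below, treat sites as independent, although many lie in the same gene (29 of the 234 in ABCC13). The difference from all genes was not tested. Where the internal cytosine was unmethylated, the external one was methylated at 0.31% of sites.

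In Ler-0, ABC genes carried more CpHpG methylation, as genes in general did. Ler-0 values come from 500-bp TAIR10 tiles that align once to the Ler-0 sequence rebuilt from its report, and Col-0 values beside them are over the same tiles. Of 1019 tiles inside the 123 members compared, 1010 were placed, with a median of 0.233% differences in the reduced sequence. The pooled level was 8.42% for Col-0 against 14.1% in Ler-0 (13.97–14.23%), beside 13.0% and 18.6% over the 22880 genes compared. In Ler-0 18 members (14.6%, 9.46–21.9%) reached 20%, beside 15.1% of all genes (16 of 112 without the chromosome 3 stretch), and 7 reached it in both libraries, beside 8.28%. Pooled CpG methylation was close, at 24.8% and 25.5%. CpG methylation of at least 10% was found in 69 members in Ler-0, beside 46.4% of all genes, and 26.1% of these members reached 20% CpHpG, beside 32.4% of all such genes. CpHpH methylation of at least 5% was found in Ler-0 in 1 member, ABCC15, beside 3.85% of all genes.

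Most members differed little between the libraries, and the median difference over all genes was also small. The median difference (Ler-0 minus Col-0) was 0.54 points (quartiles −0.13 to 3.59), beside 0.31 (−0.65 to 2.28) over all genes. Of the 123 members 78 differed by less than 2 points, a share that was not computed over all genes. With Fisher's exact test on pooled calls (two-sided, Benjamini-Hochberg over all genes compared, adjusted p under 0.01 and at least 20 points), 3 members were higher in Ler-0 and 1 lower, beside 3.31% and 0.922% of all genes. By the adjusted p alone 35 were higher and 9 lower, beside 22.1% and 8.17% of all genes. The test compares 2 libraries and cannot separate ecotype from plant or library. None of the 11 members in the chromosome 3 stretch passed the limits, where 1.88% of all genes were higher and 0.14% lower, so that nothing is read from this count.

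**Figure D4:**
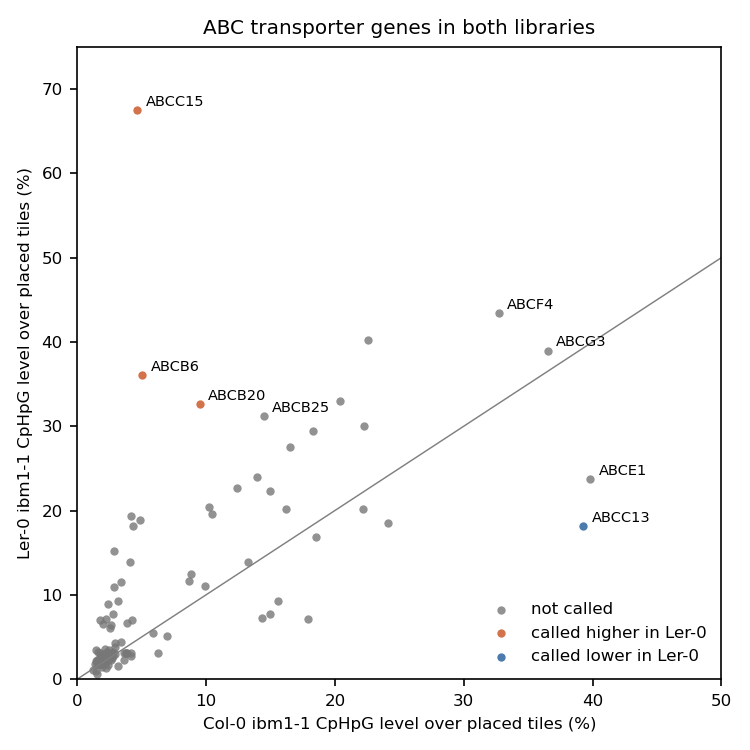
CpHpG level (%) over placed tiles in Ler-0 ibm1-1 against Col-0 ibm1-1 for 123 ABC transporter genes; the line marks equal levels and colours mark genes past the limits of Fisher's exact test. ABCC15, ABCB6 and ABCB20 stand above the line and ABCC13 below it.

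ABCC15 (AT3G60970, chromosome 3, 22557282–22561716, 11 exons), a multidrug resistance-associated protein, differed most. Col-0 had a CpHpG level of 4.66% (116 of 2489 calls) against 67.5% (3853 of 5708 calls) for Ler-0, a difference of 62.8 points (61.3–64.3). This understates it, as 2 of its 8 tiles were placed where tiles of the related ABCC9 also lie. Over the other 6 tiles, a set chosen after the data were seen, the levels were 2.53% and 73.1%. In the same 6 tiles CpG methylation was 3.51% and 93.5%, and CpHpH methylation 1.11% and 21.7%, so that Ler-0 was methylated in all contexts, from 70.1% to 74.9% CpHpG in each tile. Across the 1500 bp that holds the 2 tiles at ABCC9, the Ler-0 sequence is 553 bp shorter. Over the other 6 tiles Ler-0 had 22.0 reads per CpHpG cytosine and Col-0 7.81. Over the 2 tiles at ABCC9 these depths were 6.53 and 8.51. The part of the Ler-0 depth over the 6 tiles in the result was not tested. The 5 kb after the gene had 2.44% CpHpG in Col-0 against 30.1% in Ler-0, and the 5 kb before it 1.90% against 4.39%.

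ABCB6 and ABCB20, which encode P-glycoprotein-type transporters of similar length (1407 and 1408 amino acids), were both higher in Ler-0. ABCB6 (AT2G39480, chromosome 2, 16477792–16485039) had 5.03% (308 of 6123 calls) in the Col-0 library against 36.1% (2667 of 7393 calls) in the other, a difference of 31.0 points (29.8–32.3). Its CpG level was 48.0% and 68.9%, and CpHpG in the 5 kb on either side was at most 2.41% in either library. ABCB20 (AT3G55320, chromosome 3, 20506992–20513533) had 9.49% (576 of 6067 calls) and 32.6% (2426 of 7443 calls), a difference of 23.1 points (21.8–24.4, adjusted p = 4.89e-240 by Fisher's exact test). Its CpG level was 46.0% and 57.1%. Unlike ABCB6 it had flanks that differed, with CpHpG at 2.52% against 13.1% in the 5 kb before the start and 13.3% against 3.36% in the 5 kb after the end. For ABCC15 and ABCB6 the p-value was returned as 0 at machine precision.

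ABCC13 was the 1 member lower in Ler-0. Col-0 had 39.3% CpHpG (2209 of 5625 calls) against 18.1% (648 of 3575 calls) for Ler-0, a difference of −21.1 points (−22.9 to −19.3, adjusted p = 2.61e-104 by Fisher's exact test). CpG methylation was also lower, 81.2% and 53.9%. ABCE1 had 39.8% and 23.8% (−16.1 points), although it lies in the chromosome 3 stretch, where the Ler-0 line lacked Ler-0 sequence. Flanking CpHpG did not always follow the gene. In the 5 kb before ABCC13 it was 22.8% for Col-0 against 28.0% for Ler-0, with CpG at 85.9% against 75.3%. In the 5 kb after ABCC13 CpHpG was 13.4% against 8.64%. For ABCE1 the 5 kb after the end had 41.4% against 49.3% CpHpG, with CpG at 70.3% against 76.9%. The 5 kb before its start had 2.72% against 1.91% CpHpG. The part of the flanks in these differences was not tested.

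Other members differed by less than the limit of 20 points. ABCI8, the SUFB subunit, had 64.2% and 67.6% CpG but 17.9% and 7.11% CpHpG (−10.8 points, −13.3 to −8.31). ABCB25, a mitochondrial exporter, had 14.5% and 31.2% CpHpG, with 27.5% and 36.5% CpG. On the lower side, ABCF3 had 14.9% and 7.74% CpHpG and ABCB1 14.3% and 7.25%.

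The differences were not spread evenly along the genes. In ABCB6 the tiles within 1 kb of the gene start stayed at or under 3.64% in both libraries, while the tile centred 4789 bp from the start had 8.55% in Col-0 against 64.9% in Ler-0. In ABCB20 the tile 1783 bp from the start had 14.5% against 73.3%. In ABCC13 the tiles up to 1582 bp were at most 5.26% in both libraries, and Col-0 reached 51.6% at 6582 bp, where Ler-0 had 23.8%.

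ABCA1, a lipid transporter-type member of 13412 bp chosen after its values were seen, differed in both directions. Ler-0 was higher at 3051 bp from the start, with 16.7% in Col-0 against 65.5%, and at 3551 bp, with 8.19% against 53.8%. Further along, at 7051 bp, Col-0 was higher, with 47.8% against 33.0%.

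**Figure D5:**
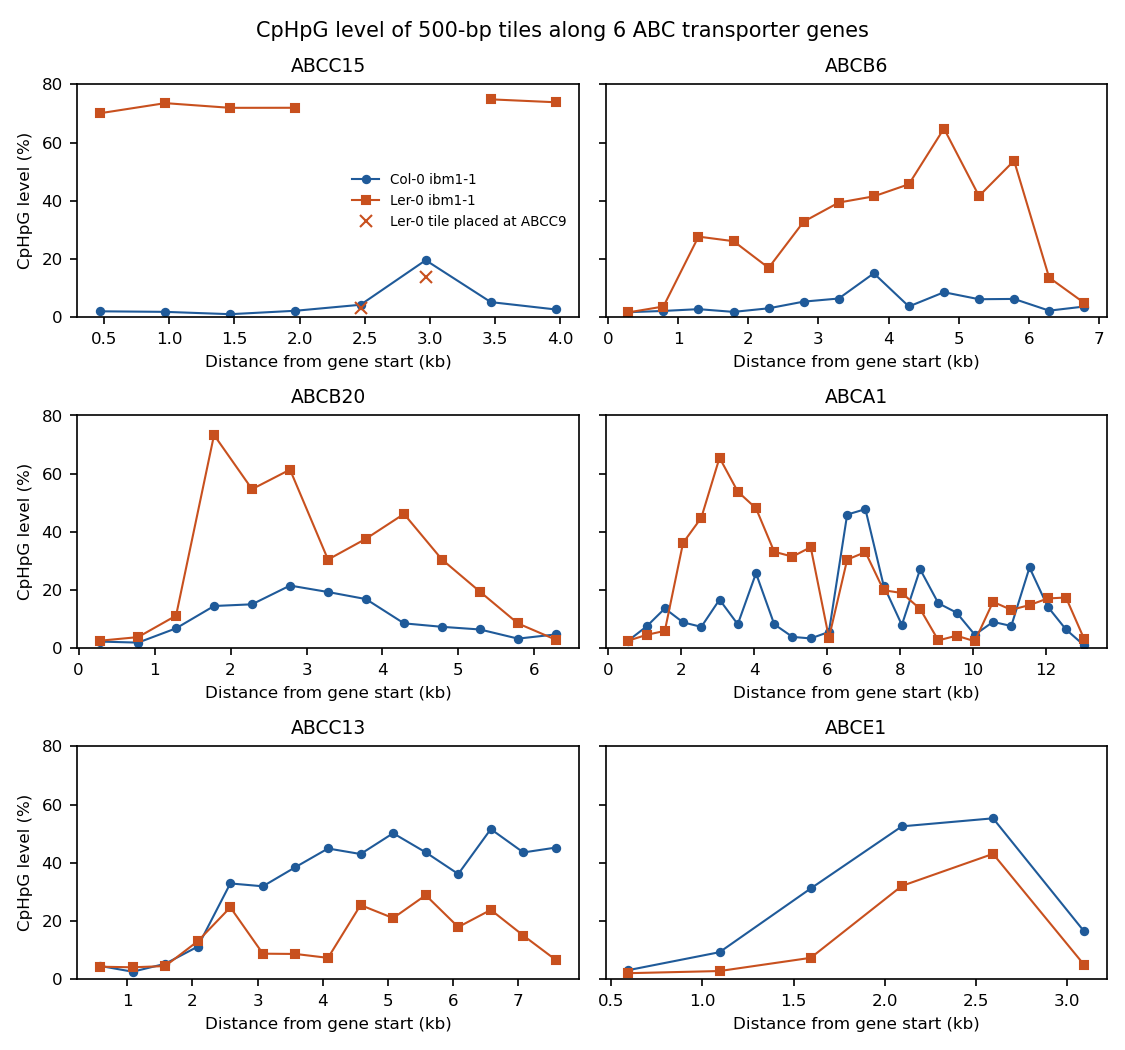
CpHpG level (%) of 500-bp tiles against distance from the gene start (kb) in 6 ABC transporter genes, with Col-0 ibm1-1 as circles and Ler-0 ibm1-1 as squares; crosses are Ler-0 tiles placed at ABCC9. The 6 remaining ABCC15 tiles lie between 70.1% and 74.9% in Ler-0, while ABCB6 and ABCB20 start low in both libraries.

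Most CpCpG sites were shared, so that the same sites could be followed in both libraries. Of 5672 Col-0 sites in placed tiles, 5582 (98.4%) were present in Ler-0. At 505 sites with enough reads the internal cytosine was methylated in both libraries, and the external one was methylated at 138 (27.3%, 23.6–31.4%) for Col-0 against 170 (33.7%, 29.7–37.9%) for Ler-0. Of these same sites 94 were methylated at the external cytosine in both, 44 in Col-0 alone and 76 in Ler-0 alone, and the difference was not tested. In ABCB6 the external cytosine was methylated at 1 of 19 such sites for Col-0 against 10 for Ler-0. In ABCB20 it was 2 and 5 of 11 sites, in ABCG32 12 and 22 of 36, and in ABCB1 7 and 1 of 23. In ABCC13, 11 of 29 internal cytosines methylated in Col-0 were unmethylated in Ler-0. In ABCC15 the internal cytosine of all 9 sites with reads was unmethylated in Col-0 but methylated in Ler-0, 8 of them also at the external cytosine.

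One site from each of 5 genes shows what the calls look like. Each is the coding-exon site with the largest difference at the external cytosine, in the direction of the gene's difference, among sites with at least 10 reads at each cytosine, so the sites were picked for their difference and are not tested. The minimum of 10 reads was settled after the sites at lower minima had been seen: with 8 reads the rule picks another site in 1 of these genes, and with 5 reads in 3. Sequences are from RefSeq (TAIR10.1) on the plus strand of the chromosome, 5′ to 3′, with the CpCpG site in capitals, the external cytosine first.
ABCC15: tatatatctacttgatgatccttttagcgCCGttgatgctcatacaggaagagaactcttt
ABCB6: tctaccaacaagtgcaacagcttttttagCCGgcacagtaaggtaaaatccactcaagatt
ABCB20: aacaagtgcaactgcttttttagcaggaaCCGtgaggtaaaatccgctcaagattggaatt
ABCC13: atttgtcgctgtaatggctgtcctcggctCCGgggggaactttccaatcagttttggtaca
ABCE1: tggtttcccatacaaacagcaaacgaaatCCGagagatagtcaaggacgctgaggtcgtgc

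The ABCC15 window lies at chr3:22558608-22558668. Its internal cytosine was methylated in 0 of 15 reads of Col-0 against 21 of 23 of Ler-0, and its external cytosine in 0 of 14 and 14 of 23. In the ABCB6 window (chr2:16481882-16481942) the internal cytosine was methylated in both libraries, in 12 of 13 and 26 of 26 reads, whereas the external cytosine was methylated in 1 of 11 and 17 of 25. The ABCB20 window (chr3:20510925-20510985) matches the ABCB6 window at most positions when shifted by a few bases, with an identical run of up to 12 bases. Neither CpCpG site is present at the matching place of the other window, so the sites are not counterparts. In the ABCB20 window both cytosines differed, with 0 of 16 and 26 of 30 reads at the internal and 1 of 18 and 19 of 30 at the external cytosine. In ABCC13 (chr2:3520954-3521014) the internal cytosine fell from 24 of 32 reads in Col-0 to 1 of 24 in Ler-0 and the external from 17 of 32 to 0 of 24. In ABCE1 (chr3:4459927-4459987, in the stretch that lacked Ler-0 sequence) the internal cytosine was methylated in 27 of 30 and 8 of 12 reads and the external in 17 of 30 and 2 of 11.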

How the data were processed

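The authors aligned the Col-0 reads to TAIR10 and the Ler-0 reads to a PacBio assembly of that ecotype, using Bismark, collapsed duplicates and deposited raw counts of methylated and unmethylated calls for each cytosine. Tool versions: not given in the sources used here. Members and lists were chosen with earlier results of these data known. Gene models came from RefSeq for TAIR10.1, whose nuclear bases match every cytosine of the Col-0 report. Since the Ler-0 assembly was not used here, its sequence was rebuilt from the report, with unresolved A and T bases written as 1 symbol in both genomes. TAIR10 tiles of 500 bp were placed on it by bwa 0.7.19 with a mapping quality of at least 20 and 400 to 600 aligned bp. Levels have 95% Wilson intervals and differences Newcombe intervals. The code for Fisher's exact test was run on simulated independent calls at the depths of the real genes. Such calls hold no dependence among reads and no spread between plants, so the run cannot show how many real genes are called wrongly. Genes named are the 8 highest in Col-0, the 5 largest differences each way (at least 100 calls in each library), members of the function lists by highest and lowest, ABCC15 and the arrays of neighbours. The result of 1 gene that this rule names is not reported here. Others, such as ABCB19, ABCB27 and ABCA1, were chosen after their values were seen. Alternatives varied read minima, level and difference limits, tile placement and member sets. Calculations used Python 3.11.15, numpy 2.4.6, pandas 2.3.3 and scipy 1.17.1.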

Additional observations from a re-analysis of the deposited data

How the results depend on the processing

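No paired analysis was possible because each ecotype has 1 library. The 3 genes higher and 1 lower in Ler-0 kept these counts with minimap2 2.31, tiles 250 bp later, at most 5% sequence differences, thinning, members by symbol only, without the chromosome 3 stretch and, chosen after seeing the data, without tiles that share a Ler-0 place. With a limit of 10 points they were 15 and 3, for which no share over all genes was computed. The difference of ABCC15 ranged from 60.5 to 70.5 points over these placements and thinning, and ABCC13 stayed at −21.5 to −20.7. Genes at 20% or more in Col-0 were 24 at a limit of 10%, 4 at 30% and 6 by the mean of single cytosines. In Ler-0 they were 33 at 10% and 9 at 30%. No share over all genes was computed for these Col-0 and Ler-0 counts, so nothing is read from them about the family. The pooled Col-0 level was 9.16% with a mean of at least 8 reads, 8.12% in coding exons, 6.77% by single cytosines, 8.77% at CpApG and CpTpG, 7.01% corrected for chloroplast calls, 7.92% without members that overlap another gene, 8.42% over placed tiles and 8.07% without ABCI4 (chosen after seeing the data). The pooled Ler-0 level was 15.3% at CpApG and CpTpG, 12.9% corrected for chloroplast calls, 14.2% at most 5% differences, 13.9% with shifted tiles and 14.4% without the stretch. External methylation at CpCpG sites was 9.69% when at least 50% was required. The causes were not tested. Depth limits single sites, which often have fewer than 10 reads.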
